A study of Mus musculus with 6 samples.

Results

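The ERK feedback inhibitors described here are transcripts of 9 genes, the dual-specificity phosphatases Dusp1, Dusp2, Dusp4, Dusp5 and Dusp6, the Sprouty genes Spry1 and Spry2, and the Spred genes Spred1 and Spred2. They were found by gene symbol in the probe annotation of the array, which gave 11 probe sets for 7 of the 9 genes, out of 22690 probe sets and 12393 named genes in all. No probe set carried the symbol Dusp4 or Dusp5, and these genes were not analysed here. RNA came from mouse multiple myeloma cells labelled as malignant plasma cells of bone marrow. Control cells had spent 12 h in serum-free medium without IGF-1, and treated cells 12 h in the same medium with IGF-1 at 100 ng/ml, with 3 Affymetrix arrays for each. Serum withdrawal is thus common to both groups. The labels name neither a mouse strain nor a line, and do not say whether replicates were separate cultures, so the p-values reflect only how these arrays vary, and that variation may be technical.

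Growth factor receptors, the IGF-1 receptor among them, activate RAS, which switches on the kinases RAF, MEK and ERK in turn. Active ERK induces genes whose products shut the pathway down again. Dual-specificity phosphatases remove phosphate from MAP kinases, Sprouty proteins act between the receptor and RAF, and Spred proteins bring the RAS inactivator neurofibromin to the membrane. Because they follow ERK activity, transcripts such as Dusp6 and Spry1 are widely used as a readout of it. In myeloma cells the same cascade is engaged by growth factors of the marrow.

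Dusp6 and Spry1 had lower signals with IGF-1 and Dusp1 had not, so the promoters of these 3 genes are shown together. They are the 250 bases before the RefSeq start of transcription (assembly GRCm38.p6), on the strand of the gene, with motif matches in capitals. Dusp6 lies at chr10:99262981-99263230 (plus strand), Spry1 at chr3:37639697-37639946 (plus strand) and Dusp1 at chr17:26508473-26508722 (minus strand).
Dusp6: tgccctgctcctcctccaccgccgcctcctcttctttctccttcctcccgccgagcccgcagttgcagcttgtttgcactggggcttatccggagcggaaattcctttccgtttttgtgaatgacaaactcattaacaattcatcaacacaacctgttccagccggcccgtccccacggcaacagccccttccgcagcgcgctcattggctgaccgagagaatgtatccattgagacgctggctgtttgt
Spry1: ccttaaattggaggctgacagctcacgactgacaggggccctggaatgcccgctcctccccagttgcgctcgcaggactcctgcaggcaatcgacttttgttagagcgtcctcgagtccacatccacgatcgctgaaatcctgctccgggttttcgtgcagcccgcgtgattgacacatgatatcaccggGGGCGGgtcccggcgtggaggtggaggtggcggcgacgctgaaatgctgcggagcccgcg
Dusp1: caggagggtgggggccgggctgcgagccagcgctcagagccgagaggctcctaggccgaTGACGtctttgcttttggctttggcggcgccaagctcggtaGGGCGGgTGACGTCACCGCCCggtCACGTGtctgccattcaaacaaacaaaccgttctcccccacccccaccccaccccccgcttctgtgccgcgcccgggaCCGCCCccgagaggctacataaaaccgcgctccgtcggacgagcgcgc

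On both strands, 9 motifs were searched. They were an ETS site CCGGAA (longer than the ETS core GGAA), the cAMP response element TGACGTCA, its half-site TGACG and the AP-1 site TGANTCA. The others were the EGR site GCGGGGGCG, the SP1 site GGGCGG, the E-box CACGTG, the FOXO site TGTTTAC and the CArG box bound by serum response factor. The half-site lies inside the full cAMP response element, and the SP1 and EGR sites can overlap. Dusp1 held 1 full cAMP response element at -143 to -136 from the start, a motif present in 1.55% of 32851 promoter windows of the same length. It also held 3 half-sites, of which those at -143 and -140 belong to the full element, 3 SP1 sites and an E-box at -126 to -121. TGACG occurred in 17.8% of all windows, GGGCGG in 32.7% and CACGTG in 6.02%. Spry1 held 1 SP1 site at -60 to -55, and the Dusp6 window held 0 of the 9 motifs. The shorter ETS core GGAA was not searched for, and its letters do occur in the Dusp6 window. The windows of Dusp2, Dusp5, Spry2, Spred1 and Spred2 were searched too, and held 0 full cAMP response elements. Dusp2, whose probe set did not pass, held 3 SP1 sites, 1 E-box and 1 EGR site. Spred1 held 2 SP1 sites, Spred2 1 SP1 site and 1 half-site, and Spry2 0 of the 9 motifs. Dusp5 held 1 SP1 site, 1 half-site and 2 CArG boxes. A match is a string of letters in this window and was not tested as a binding site.

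Of the 11 probe sets, 7 passed the filter on dim signals (a mean signal over the 6 arrays above 53.61) and entered the test, covering 6 genes. These are Dusp1, Dusp2, Dusp6, Spry1, Spred1 and Spred2, whereas both probe sets of Spry2, 1 of 3 of Spred1 and 1 of 2 of Spred2 lay below it. Differences are IGF-1 minus control on the scale of log2(signal + 15.57), which understates changes of dim probe sets, and adjusted p-values are from limma over 11313 probe sets. Taking the brightest tested probe set for each gene, 2 member genes fell (Dusp6 and Spry1), 0 rose and 4 did not pass. At an unadjusted p under 0.05, 3 were lower and 0 higher in the limma fit. Among all 6895 tested genes, 8.05% fell and 7.05% rose, and 16.1% were lower and 14.4% higher at the unadjusted threshold. By probe set, 3 of the 7 tested ones fell and 0 rose, where 8.28% and 6.82% of all tested probe sets did. The median difference of the 6 genes was -0.30, that of all tested genes -0.01, and 6 of the 7 tested probe sets lay below 0, as did 51.6% of all tested ones. By gene, 5 of the 6 lay below 0, as did 51.3% of all tested genes. No test of the set was made, and the count of falls was 0 or 1 without control 1, 2 or 3 or IGF-1 2.

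**Figure D1:**
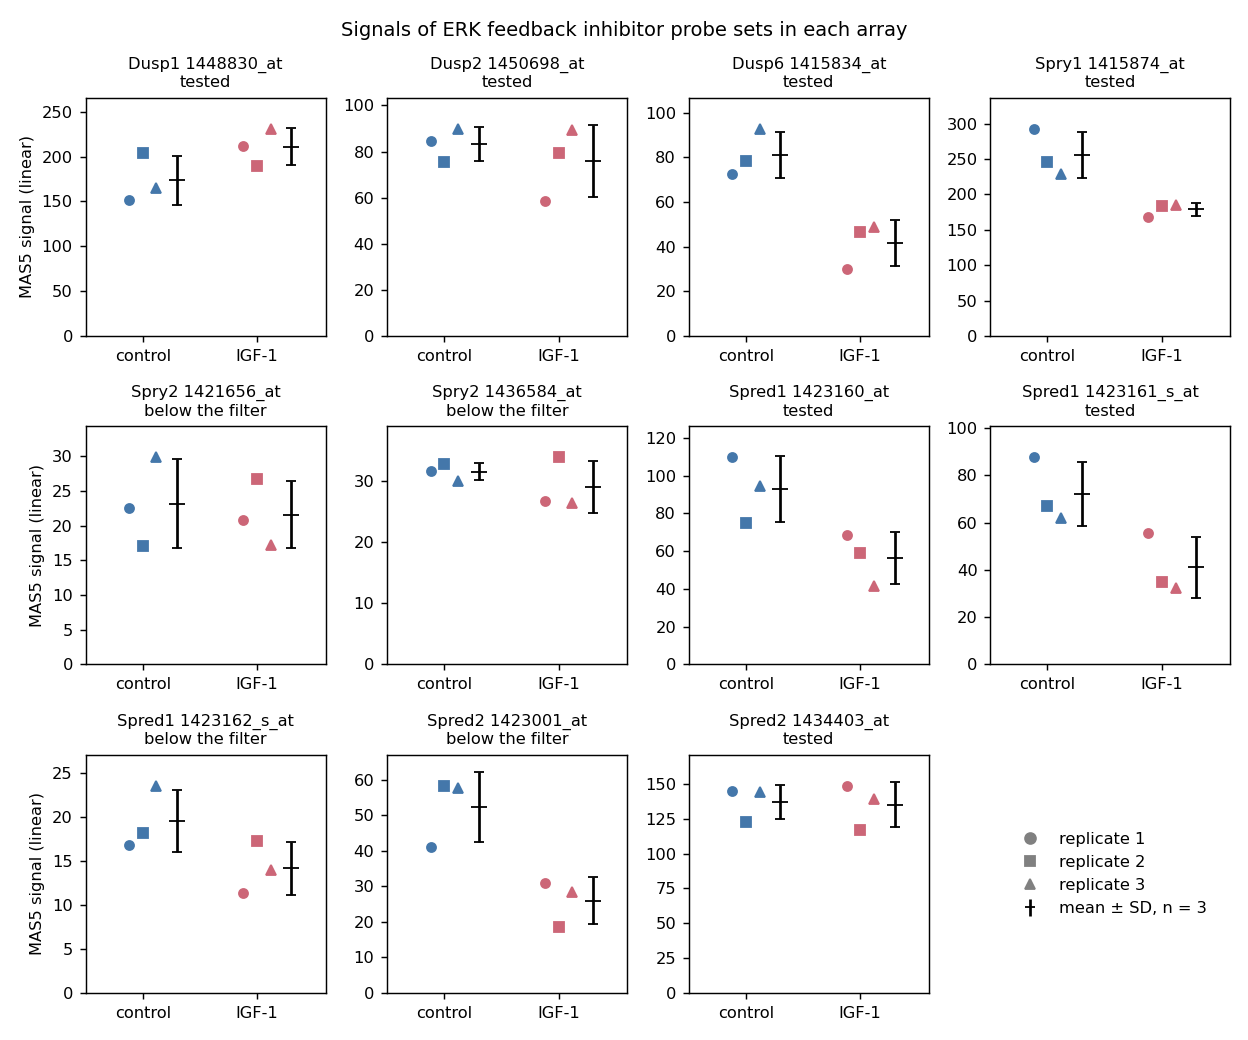
Signals of the 11 probe sets in each array, on a linear scale that starts at 0, with 3 control arrays (blue) and 3 IGF-1 arrays (red) and the mean ± SD beside them. The groups of Dusp6, Spry1, 2 probe sets of Spred1 and the dimmer probe set of Spred2 do not overlap, and those of the other 6 probe sets do.

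Dusp6 encodes a cytoplasmic phosphatase selective for ERK. Its signals (probe set 1415834_at) were 72.7, 78.4 and 92.7 in the control arrays and 29.9, 46.7 and 48.7 with IGF-1. Every IGF-1 array was below every control array, and IGF-1 1 was the lowest of all. The mean went from 81.3 ± 10.3 to 41.8 ± 10.3 (SD, n = 3), a ratio of 1.95. On the log2 scale Dusp6 fell by 0.77 (SE 0.17, 95% interval -1.15 to -0.38, adjusted p = 0.0168 in limma), and 1.81% of tested probe sets had a lower difference. The probe set is dim, at 61.5 over all arrays against the filter of 53.61, and its difference was -0.92 and -0.50 with a smaller and a larger pseudocount. The call was lost without control 2 (adjusted p = 0.0529) or control 3 (adjusted p = 0.063), and without a filter (adjusted p = 0.0608).

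Over the 6 arrays, the 5 tested genes whose log2 signals, each centred on its own mean, lay closest to those of Dusp6 were Csf3r, Pnpla7, Padi4, Cybb and Ffar2, at root-mean-square distances of 0.078 to 0.097. Csf3r encodes the receptor for granulocyte colony-stimulating factor, Cybb a subunit of the phagocyte NADPH oxidase, and Padi4 an enzyme of granulocytes that citrullinates histones. Their log2 differences were -0.66 for Csf3r, -0.73 for each of Pnpla7, Padi4 and Cybb, and -0.78 for Ffar2. Csf1r, the receptor of macrophage growth factor, gave 501.4, 642.0 and 868.7 in controls and 265.0, 309.8 and 375.5 with IGF-1. Control 3 was the highest array and IGF-1 1 the lowest for Dusp6, for Csf1r and for the monocyte marker Cd14. The same was so for 5 of the 18 tested neutrophil, macrophage and monocyte markers, of which 11 were highest in control 3 and 8 lowest in IGF-1 1. The share of all tested genes with these extremes is not given here, so these counts cannot be read as particular to myeloid markers. Among the others, Ltf was highest in control 2 and lowest in IGF-1 2, Itgam was lowest in IGF-1 2, and Cd68 rose, from 935.4 ± 52.9 to 1249.1 ± 43.1 (SD, n = 3). The part of myeloid transcripts in the result for Dusp6 was not tested. In bulk RNA, fewer cells of a type and less RNA per cell cannot be told apart.

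**Figure D2:**
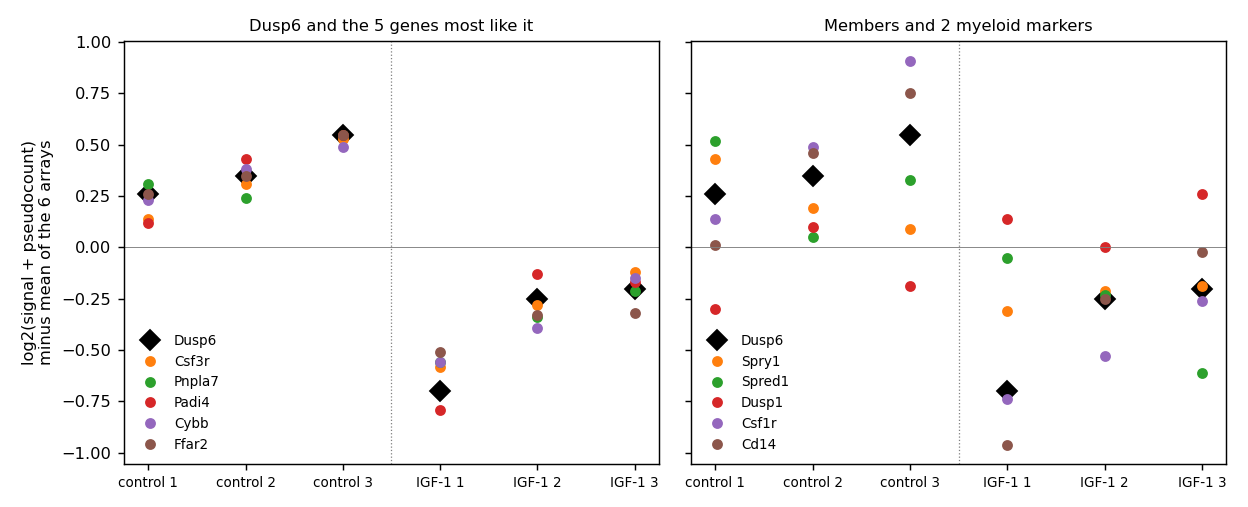
Log2(signal + pseudocount) minus the mean of the 6 arrays, for each array, in Dusp6 (black diamonds) with the 5 genes closest to it (left) and with other members and myeloid markers (right). The 5 genes were chosen for lying close to Dusp6, which is lowest in IGF-1 1 at -0.70, while Spry1 spans only -0.31 to -0.19 in the IGF-1 arrays. Csf1r and Cd14 are among the 5 of 18 tested myeloid markers that, like Dusp6, were highest in control 3 and lowest in IGF-1 1.

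Among the nuclear phosphatases, Dusp1 (known as MKP-1, acting on p38 and JNK as well as ERK) was the 1 member with a positive difference. It gave (probe set 1448830_at) 151.1, 204.3 and 164.8 in control arrays and 211.9, 189.6 and 230.8 with IGF-1. The groups overlapped, since control 2 lay above IGF-1 2. Its difference of 0.27 ± 0.13 (SE) did not pass (95% interval -0.02 to 0.55, adjusted p = 0.199), and 15.0% of tested probe sets had a higher one. With scaling to hybridization controls the difference of Dusp1 was 0.54 and passed (adjusted p = 0.0171). Under that scaling the median difference of all tested probe sets was 0.25, and 24.6% of all tested genes rose.

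Dusp2, a nuclear phosphatase found mainly in blood cells, gave (probe set 1450698_at) 84.7, 75.3 and 89.8 in controls and 58.7, 79.3 and 89.5 with IGF-1. Only IGF-1 1 lay below the range of the controls. The difference was -0.12 (95% interval -0.47 to 0.22, adjusted p = 0.64), positive (0.12) with scaling to hybridization controls and 0.02 without IGF-1 1.

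Spry1, a Sprouty protein that restrains signalling from receptor tyrosine kinases, was the brightest of the called members' probe sets. Its signals (probe set 1415874_at) were 292.6, 246.4 and 228.7 in control arrays and 168.7, 183.2 and 184.8 with IGF-1. The groups did not overlap, and the IGF-1 arrays lay closer together than the controls. From 255.9 ± 33.0 to 178.9 ± 8.85 (SD, n = 3), Spry1 fell by 0.48 (SE 0.12, 95% interval -0.73 to -0.22, adjusted p = 0.0218 in limma). Of the tested probe sets, 7.42% had a lower difference. In contrast to Dusp6 and Csf1r, its highest control array was control 1. Spry1 passed when control 3 or IGF-1 3 was removed but not when any other array was (adjusted p = 0.0549 to 0.0624), nor without a filter (adjusted p = 0.0516) or with scaling to hybridization controls (-0.20, adjusted p = 0.331).

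Spry2, its close relative, was near the lower end of the signals in both probe sets. Probe set 1421656_at gave 22.5, 17.1 and 29.8 in controls and 20.8, 26.7 and 17.2 with IGF-1, and 1436584_at gave 31.7, 32.9 and 30.1 against 26.7, 33.9 and 26.5. The groups overlapped in both. Neither was tested, and without a filter their differences of -0.05 and -0.08 had adjusted p-values of 0.922 and 0.842. Both were 0.11 with scaling to hybridization controls.

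Spred1, which recruits neurofibromin to RAS, was measured by 3 probe sets designed on 1 sequence record. The brightest (1423160_at) gave 109.7, 74.8 and 94.6 in controls and 68.8, 59.2 and 41.7 with IGF-1, and groups did not overlap. Its difference of -0.60 ± 0.18 (95% interval -1.0 to -0.19) missed the threshold by little (adjusted p = 0.0513). The next (1423161_s_at) gave 87.6, 66.9 and 62.1 against 55.8, 35.1 and 32.3, again with no overlap, and fell by 0.64 ± 0.19 (adjusted p = 0.0482). The dimmest, 1423162_s_at (16.8, 18.2 and 23.5 against 11.3, 17.3 and 13.9) was below the filter, with a difference of -0.24. All 3 were thus lower on average, but the 2 tested ones lay on either side of the threshold. The second did not pass when control 2, control 3, IGF-1 2 or IGF-1 3 was removed (adjusted p up to 0.145), nor without a filter or with quantile normalization or scaling to hybridization controls. The brightest passed without IGF-1 1 (-0.72, adjusted p = 0.0457).

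The probe sets of Spred2, a second Spred protein, did not give the same picture. The brighter, tested one (1434403_at) gave 144.7, 122.8 and 143.9 in controls and 148.6, 117.0 and 139.5 with IGF-1, with overlapping groups and a difference of -0.02 (95% interval -0.30 to 0.25, adjusted p = 0.926), which turned to 0.24 with scaling to hybridization controls. The dimmer one (1423001_at) gave 40.9, 58.2 and 57.5 against 31.0, 18.4 and 28.3. Its groups did not overlap, and the means were 52.2 ± 9.76 and 25.9 ± 6.62 (SD, n = 3). It was below the filter, and without a filter its difference of -0.71 ± 0.20 did not pass (adjusted p = 0.0915). The probe sets were designed on different sequence records.

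**Figure D3:**
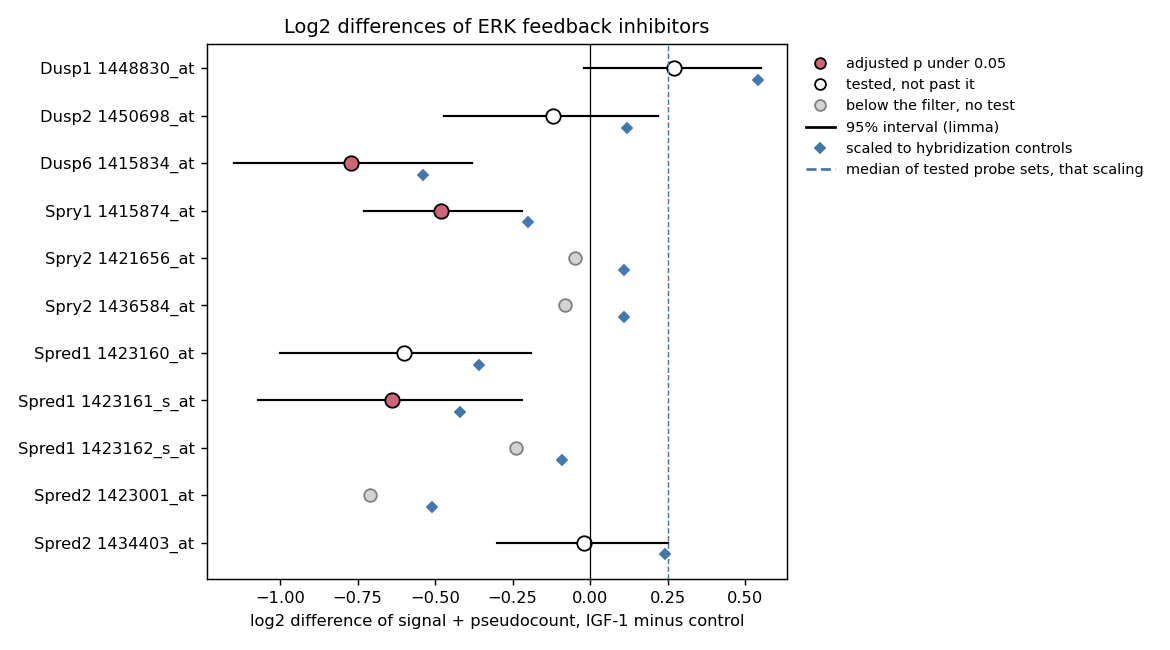
Log2 differences (IGF-1 minus control) of the 11 probe sets with 95% intervals for the 7 tested ones, and the same differences with arrays scaled to hybridization controls (diamonds). Red points passed the threshold of 0.05 (Dusp6, Spry1 and 1 probe set of Spred1), and the dashed line at 0.25 is the median of all tested probe sets under that other scaling.

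Among the 7 tested probe sets, 4 had all IGF-1 arrays below all control arrays and 0 the reverse, where 18.7% and 16.1% of all tested probe sets did so. Both tested probe sets of Spred1, designed on 1 sequence record, are among those 4, so the count is not one of separate genes. Of the 4 below the filter, 1 had such a separation (Spred2), against 7.19% of all probe sets there. Over the 11 probe sets this made 5, against 12.9% of all probe sets but controls. The deposited arrays all have the same trimmed mean. Scaling to the hybridization controls, which are spiked into each sample, moved the median difference of all tested probe sets from -0.01 to 0.25 and the share of calls that were rises from 45.2% to 91.8%. Relative to that median, Dusp6 was at -0.79, Spry1 at -0.46, the brightest probe set of Spred1 at -0.61 and Dusp1 at 0.28. Subtracting the median largely undoes the scaling, so these values lie near the first ones by construction. Dusp6 kept its call under the scaling by a narrow margin (-0.54, adjusted p = 0.0497). Spry1 (adjusted p = 0.331) and the brightest probe set of Spred1 (adjusted p = 0.182) did not pass under it.

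Ratios of 2 probe sets within an array do not depend on array scaling, and 4 such ratios, chosen after the values were seen, were computed without a pseudocount. The log2 ratio of Dusp6 to Dusp1 was -1.05, -1.38 and -0.83 in controls and -2.82, -2.02 and -2.24 with IGF-1, a difference of -1.27. Spry1 over Dusp1 went from 0.57 ± 0.35 to -0.23 ± 0.16, and Spred1 over Spred2 (brightest probe sets) from -0.57 ± 0.16 to -1.28 ± 0.41 (SD, n = 3). The dim over the bright probe set of Spred2 went from -1.41 ± 0.38 to -2.41 ± 0.22. In each of the 4, all IGF-1 arrays were below all control arrays. As the pairs were picked with their values known, this is a description. A two-sided exact permutation test gave p = 0.1 for each ratio, the smallest value that 3 against 3 arrays allow. Full separation fixes that value, so the test adds nothing to the description. How often other pairs of probe sets separate in this way is not given here. The dim Spred2 probe set is below the filter.

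**Figure D4:**
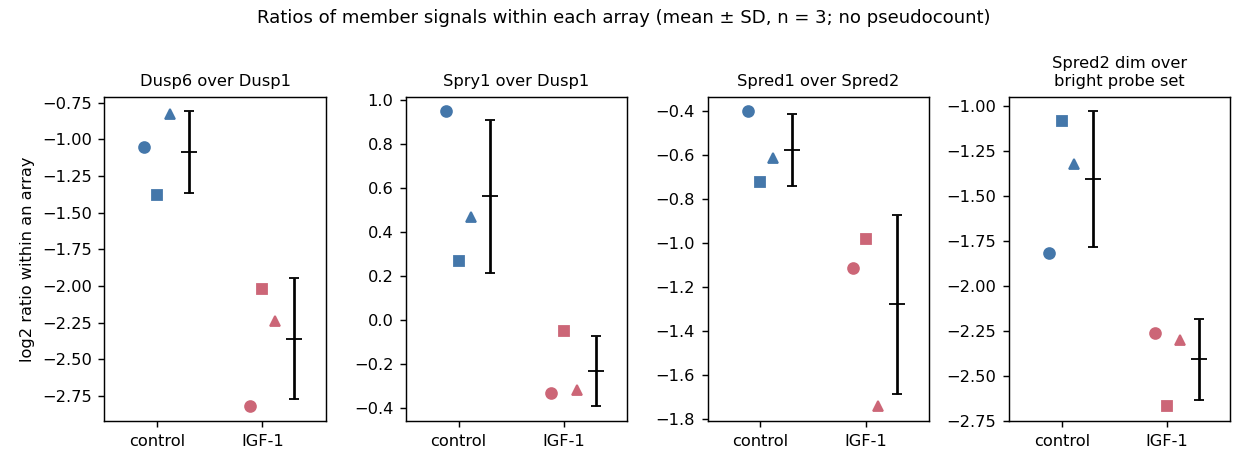
Log2 ratios of 2 probe sets within each array for Dusp6 over Dusp1, Spry1 over Dusp1, Spred1 over Spred2, and the dim over the bright probe set of Spred2, with mean ± SD of 3 arrays. All IGF-1 arrays (red) lie below all control arrays (blue) in each panel, for pairs that were chosen after their values were seen. Axes do not start at 0.

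Other genes of the cascade were read from lists, each gene by its brightest tested probe set, and set against the 8.05% of genes that fell and 7.05% that rose (16.1% and 14.4% at an unadjusted p under 0.05). With scaling to hybridization controls, 2.06% of all tested genes fell and 24.6% rose. Of 9 tested MAP kinase phosphatases outside the members, 2 rose, 0 fell and 7 did not pass (median 0.06). At an unadjusted p under 0.05, 3 were higher and 1 lower. Dusp14, a small phosphatase that acts on MAP kinases, rose from 241.2 ± 15.8 to 380.5 ± 14.6 (log2 difference 0.63 ± 0.10, adjusted p = 0.00309) and kept its call without each array in turn. Dusp7, the cytoplasmic ERK phosphatase most like Dusp6, rose from 97.9 ± 7.89 to 147.9 ± 18.1 (0.52 ± 0.13, adjusted p = 0.0218), the opposite direction to Dusp6, but it passed in only 2 of the 6 fits with 1 array removed, those lacking control 1 and IGF-1 3 (highest adjusted p 0.0813). Dusp22 (0.36, adjusted p = 0.0577) and Dusp8 (-0.52, adjusted p = 0.125) did not pass. The count of rises was 3 without control 1, 2 without IGF-1 3 and 1 when any other array was removed. Without IGF-1 3 there was also 1 fall. With scaling to hybridization controls 5 phosphatases of this list rose and 0 fell.

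Of 6 tested genes among Sprouty and Spred relatives and RAS GTPase-activating proteins, which return RAS to its inactive form, 2 fell, 1 rose and 3 did not pass (median -0.33). Rasa2 fell from 318.7 ± 8.70 to 208.1 ± 16.6 (-0.58 ± 0.10, adjusted p = 0.00496) and Dab2ip rose from 113.5 ± 4.03 to 171.6 ± 10.3 (0.54 ± 0.11, adjusted p = 0.00978), and both kept their calls without each array in turn. Rasa1 fell by 0.32 (adjusted p = 0.0495), a call that no fit with 1 array removed retained (highest adjusted p 0.156). The count of falls was 2 without control 1 and 1 without any other array. Rasa3 did not pass (-0.33, adjusted p = 0.156). Spry4, named after its values were seen, did not pass either (-0.43 ± 0.22, adjusted p = 0.216). With scaling to hybridization controls 0 of the 6 fell and 1 rose, where 2.06% and 24.6% of all genes did.

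Of 7 tested other inhibitors of receptor and ERK signalling, 1 fell, 0 rose and 6 did not pass (median 0.09, with 1 lower and 1 higher at an unadjusted p under 0.05 in limma). Cbl, a ubiquitin ligase that sends activated receptors for degradation, fell from 167.8 ± 34.0 to 100.8 ± 14.0 (-0.65 ± 0.15, adjusted p = 0.019). Cbl passed in 3 of the 6 fits with 1 array removed (highest adjusted p 0.0638), failing where control 3, IGF-1 2 or IGF-1 3 was the absent array. Sh2b3 (0.33), Erf (0.27) and Pebp1 (0.11) did not pass. With scaling to hybridization controls 3 of the list rose and 0 fell, where 24.6% and 2.06% of all genes did.

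In the cascade from receptor adaptors to ERK, 15 genes were tested, of which 1 rose, 1 fell and 13 did not pass (median 0.10). Rras, a RAS-related GTPase, rose from 252.4 ± 35.5 to 396.8 ± 48.1 (0.62 ± 0.13, adjusted p = 0.0105). Sos2, an exchange factor that loads RAS with GTP, fell by 0.54 (adjusted p = 0.017), a call lost without IGF-1 2 or IGF-1 3. Gab2, a docking protein (0.50, adjusted p = 0.052), and Map2k2, which encodes the ERK kinase MEK2 (0.25, adjusted p = 0.15), did not pass. With scaling to hybridization controls 6 of the list rose and 0 fell, where 24.6% and 2.06% of all genes did. Of 24 genes in that list, 7 had no named probe set and were not analysed here.

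Of 8 tested genes of the p38 and JNK cascades, which Dusp1 also restrains, 2 fell, 0 rose and 6 did not pass (median -0.19; 2 lower and 0 higher at an unadjusted p under 0.05 in limma). Both falls, Map3k5 (-0.45, adjusted p = 0.0334) and the p38 gene Mapk14 (-0.33, adjusted p = 0.0433), passed in none of the 6 fits with 1 array removed (highest adjusted p 0.105 and 0.137). Mapk13 (-0.57) and Map2k4 (-0.21) did not pass, and Map2k4 was positive (0.05) with scaling to hybridization controls. Under that scaling 0 genes of the list fell and 0 rose.

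Among 16 tested ERK-induced genes outside the members, 4 fell, 0 rose and 12 did not pass (median 0.10, with 4 lower and 3 higher at an unadjusted p under 0.05 in limma). Beside Myc and Jun, Zfp36, which encodes the mRNA-destabilizing protein tristetraprolin, fell from 654.4 ± 114 to 419.8 ± 26.2 (-0.61 ± 0.13, adjusted p = 0.0117), and Btg2 fell by 0.33 (adjusted p = 0.0328). The call of Btg2 was kept only in the fit lacking control 1 (highest adjusted p 0.127), and in the fit lacking control 3 there was 1 rise. With scaling to hybridization controls 1 of the 16 fell (Myc, -0.96) and 6 rose, against 2.06% and 24.6% of all genes. Etv4, a transcription factor induced by ERK along with Dusp6 in many cells and named here after its values were seen, was below the filter. Its signals were 23.5, 23.7 and 11.4 in controls and 86.3, 29.1 and 64.5 with IGF-1, and without a filter its difference of 1.05 ± 0.32 did not pass (adjusted p = 0.118).

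**Figure D5:**
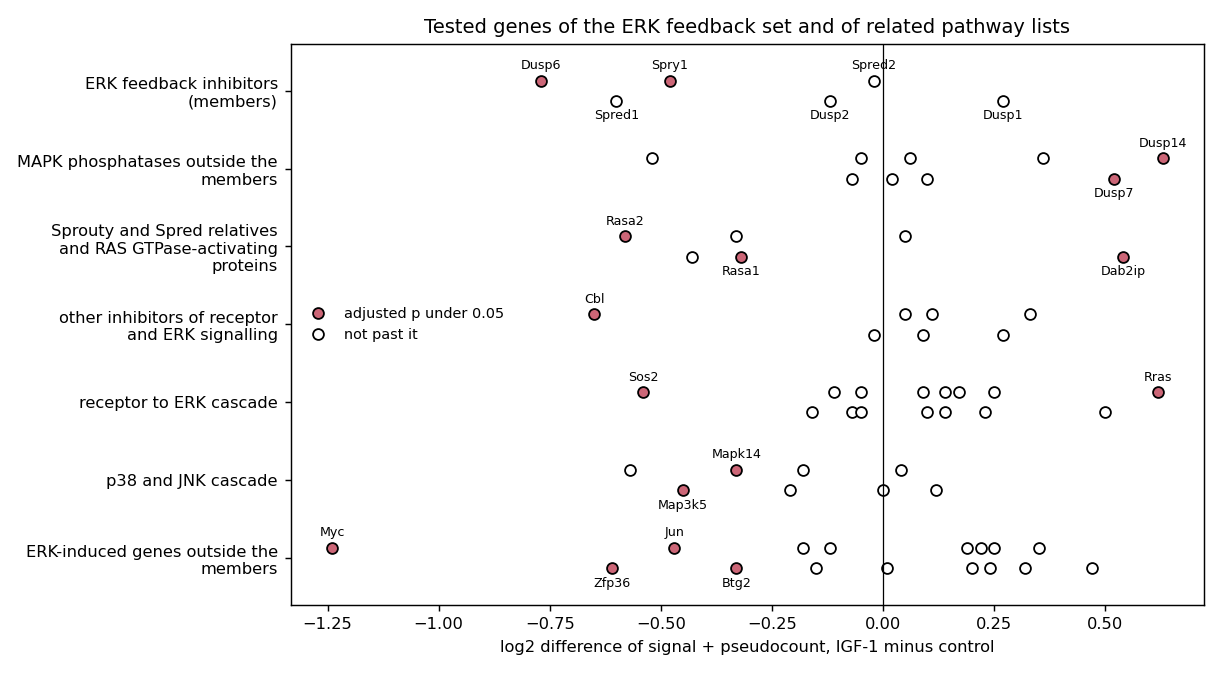
Log2 differences (IGF-1 minus control) of the tested genes of each list, 1 point per gene, with those past the threshold of 0.05 in red and named. Among the members Dusp6 and Spry1 are red and on the lower side, while Dusp14 and Dusp7 are red on the higher side.

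Markers of cell types were read the same way. Among all tested genes, 8.05% fell, 7.05% rose and 51.3% lay below 0. At an unadjusted p under 0.05 in limma, 16.1% were lower and 14.4% higher. Under scaling to hybridization controls, 0 plasma cell markers fell and 1 rose, and 0 neutrophil markers fell and 0 rose. Of the macrophage and monocyte markers 1 fell and 1 rose under it, where 2.06% and 24.6% of all genes did. Of 9 tested plasma cell markers 2 fell, Tnfrsf17 (-0.51) and Slamf7 (-0.62), and 0 rose (4 were lower and 0 higher at an unadjusted p under 0.05 in limma, and 4 fell when the probe set of smallest p stood for each gene), and the list's summed signal was 12789 to 13794 in control arrays and 12033 to 12504 with IGF-1. Neutrophil markers summed to 25113 to 29987 and 23301 to 25932, with 8 of 9 tested members below 0, 4 lower at the unadjusted threshold and 1 fall (Ltf, lost without IGF-1 2, while the count was 2 without IGF-1 3). Macrophage and monocyte markers summed to 7956 to 9734 and 7266 to 8868, with 8 of 9 tested members below 0, 4 lower and 1 higher at the unadjusted threshold, 3 falls (Csf1r, Itgam and Cd14) and 1 rise (Cd68). The count of falls in that list was 4 when control 1 or IGF-1 3 was removed and 1 when any other array was. The rise was lost without IGF-1 2. All 7 T and NK cell markers with a probe set were below the filter. No marker was listed at 0, and the lowest macrophage marker was C1qa, at 9.4 and 6.6. Of 5 erythroid markers 1 was tested and of 5 stromal and endothelial markers 2 were tested, with no call in limma, also at an unadjusted p under 0.05, although 1 erythroid marker passed as lower without control 1.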

How the data were processed

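The deposited file holds intensities on a linear scale. The submitters' processing notes name GCOS and MAS5; versions and scaling target: not given in the sources used here. The mean without the lowest and highest 2% of signals was 150.1 in each array, and array medians were 49.96 to 55.36. Genes were named from the platform annotation, with probe sets of several symbols left unnamed. Promoters are RefSeq's (GRCm38.p6), matched by symbol for 8 of the 9 members.

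Probe sets with a mean signal above 53.61, the median, were tested (11313, without 64 control probe sets) on a log2 scale after adding 15.57, the 25th percentile of signals. Groups were compared with limma 3.58.1 in R 4.3.3 (lmFit, eBayes with an intensity trend, two-sided, Benjamini-Hochberg adjusted, threshold 0.05). The fit was tested on simulated data. Tables used Python 3.11.15 (pandas 2.3.3, matplotlib 3.10.9). Members and lists were chosen with earlier results of these data known. Every member probe set is reported, with up to 4 tested genes of smallest p from each pathway list and the 5 genes closest to the member with the largest difference. Other settings tried were 2 pseudocounts, no filter, quantile normalization, scaling to 18 hybridization control probe sets, eBayes without trend or robust, a replicate block, another probe set per gene, and 1 array left out. The number of arrays limits the precision.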

Additional observations from a re-analysis of the deposited data

How the results depend on the processing

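The count of member genes that fell, 2, was 0 without a filter and 1 with scaling to the hybridization control probe sets, where 1 rose (Dusp1). It was 3 with the larger pseudocount, without the intensity trend, with robust eBayes and with the probe set of smallest p per gene. With 1 array left out it was 0 to 2, and 0 rose in each. Without IGF-1 1 the 2 were Dusp6 and Spred1, and Spry1 did not pass. Over all probe sets, 937 fell and 772 rose, against 498 and 448 without a filter, 246 and 2750 with scaling to hybridization controls, and 497 to 785 and 404 to 663 with 1 array left out. Signs turned for Dusp2 with scaling to hybridization controls (0.12) and with 1 array left out (-0.23 to 0.02), and for the tested probe set of Spred2 with quantile normalization (0.01) and scaling to hybridization controls (0.24), as well as with 1 array left out (-0.09 to 0.07). The brightest probe set of Spred1 passed with the larger pseudocount (adjusted p = 0.0485), without the intensity trend (0.0494) and with robust eBayes (0.0489). The other tested probe set of Spred1 (1423161_s_at) did not pass without a filter (adjusted p = 0.134), with quantile normalization (0.0719) or with scaling to hybridization controls (0.138). With the smaller pseudocount it was at the threshold (adjusted p = 0.05 in limma) and did not pass, and without control 1 it was not tested. It passed in 5 of the 13 other settings that tested it. In the labels same-numbered arrays share only a number, and whether they were paired is not stated. Deviations from group means correlated at 0.12, -0.03 and 0.13 for numbers 1 to 3, and 4 of 6 arrays correlated best with their own number. With the replicate number as a block, 978 probe sets fell and 754 rose, 3 member genes fell, and the differences of Dusp6 and Spry1 had adjusted p-values of 0.0134 and 0.0316.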
